A study of Mus musculus with 8 samples.

Results

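Parathyroid hormone-related peptide (Pthlh) and its receptor (Pth1r) are described here in uterine stromal cells of mice. They are the 2 rows, of 23420 gene symbols counted, that carry these names, and both had enough reads for the test across genes, as did 14598 genes in all. The pair was picked because of how it read out in these same libraries. Its difference between the groups is therefore given as a description, with no p-value. Polyadenylated RNA was sequenced in 8 libraries of uterine stromal cells labelled day 3, of which 4 carry the genotype label Erbb3f/f and the other 4 Erbb3d/d. In the usual shorthand f stands for a floxed allele and d for the allele left once Cre recombinase has removed the part between its loxP sites. The labels name no Cre line, no age and no event from which day 3 is counted, and they do not say whether each library is a separate animal, so p-values measure the spread between these libraries only. Values given for single libraries follow the replicate numbers, 1 to 4, within each label.

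PTHrP, the peptide made from Pthlh, shares its first residues with parathyroid hormone and acts mainly on cells near those that make it. Its receptor, PTH1R, is a class B receptor coupled to G proteins that raise cyclic AMP and activate protein kinase A, and also to those that activate phospholipase C. In cartilage the peptide works in a loop with Indian hedgehog, in the developing mammary bud it passes from epithelium to the mesenchyme around it, and in the uterus it is known to relax smooth muscle.

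Depth ran from 8578575 to 12854367 reads in genes per library. Erbb3, which encodes the targeted receptor tyrosine kinase, averaged 9.63 ± 2.24 CPM (SD, n = 4; CPM is the read count scaled to a common library total) in the libraries labelled Erbb3f/f and 13.9 ± 4.55 CPM (SD, n = 4) in those labelled Erbb3d/d. Its mean was thus no lower under the label Erbb3d/d, so each direction below follows the labels only, and counts per gene do not show the targeted exons on their own. Stromal markers such as Pdgfra, Dcn and Hoxa11 were present in all libraries, with a summed level of 13773 to 17677 CPM over 15 markers in the libraries labelled Erbb3f/f and 12040 to 16542 CPM in those labelled Erbb3d/d. Of these markers 10 of 15 had a log2 fold change below 0 (Erbb3d/d over Erbb3f/f), with a median of -0.20. At an unadjusted p under 0.05 by edgeR 1 was higher and 5 were lower, and none passed an adjusted p of 0.05. Pdgfra, at 914 and 621 CPM on average, was lower in all 4 libraries labelled Erbb3d/d (log2 fold change -0.56, SE 0.13), and DESeq2 called it and Vim. Over all genes tested, 2.48% lay apart with Erbb3d/d lower and DESeq2 called 1.79%. Without Erbb3d/d replicate 2 edgeR called Pdgfra, Hoxa10 and Hoxa11. The part of stromal content in the values below was not tested.

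Erbb3d/d replicate 2 stood nearer to the libraries of the other label than to those of its own. Its chi-square per gene, a measure of how far the counts of a pair of libraries differ beyond their depth, was 10.8 to 14.3 against the libraries labelled Erbb3f/f and 19.2 to 35.2 against the other three labelled Erbb3d/d. Without this library edgeR called 259 genes, against 0 with it.

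Both genes lie on the minus strand of GRCm38. Pthlh (ENSMUSG00000048776.8) is on chromosome 6 from 147252101 to 147264183, with 4 merged exons of 1619 bp in all and 2 annotated transcripts (GENCODE vM21). Pth1r (ENSMUSG00000032492.14) is on chromosome 9 from 110722085 to 110747145, with 18 merged exons of 2925 bp and 6 transcripts. RefSeq gives Pthlh 1 start site and Pth1r 3, and the deposited counts add up reads from all of them, so no value below belongs to a single start. The bases before each start are shown because the 4 starts differ in make-up. Each sequence was read 5′ to 3′ on the gene's strand from RefSeq on GRCm38.p6 and leaves out every annotated exon. Capitals mark each GC box (GGGCGG, either strand), the core bound by Sp1-type factors, that falls within the bases printed.

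Pthlh, start at 147264013, bases chr6:147264184-147264263: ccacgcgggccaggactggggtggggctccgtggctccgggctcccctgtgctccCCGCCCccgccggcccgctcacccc
Pth1r, start at 110747145, bases chr9:110747146-110747295: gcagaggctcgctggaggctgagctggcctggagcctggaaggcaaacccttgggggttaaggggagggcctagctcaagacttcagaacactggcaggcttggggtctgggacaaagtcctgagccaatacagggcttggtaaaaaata
Pth1r, start at 110743686, bases chr9:110743687-110743836: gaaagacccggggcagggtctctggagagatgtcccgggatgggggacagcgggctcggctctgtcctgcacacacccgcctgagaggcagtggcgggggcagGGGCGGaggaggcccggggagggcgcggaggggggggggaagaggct
Pth1r, start at 110742610, bases chr9:110742720-110742860: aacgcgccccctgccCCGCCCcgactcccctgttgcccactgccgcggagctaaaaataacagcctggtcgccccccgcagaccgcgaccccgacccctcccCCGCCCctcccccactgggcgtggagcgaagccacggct

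The Pthlh start and the last Pth1r start are rich in G and C, at 75.2% and 70.4% of the 250 bases before them, against a median of 52.4% over 32851 mouse start sites. The most upstream Pth1r start had 56.0%. A GC box occurred in the 250 bases before the Pthlh start and before the other two Pth1r starts, but not before the most upstream one, and 32.7% of all start sites hold one. The core of the cyclic AMP response element (TGACG, either strand), found before 17.8% of start sites, occurred once, 157 to 161 bases before the most upstream Pth1r start. The letters of the GLI motif (GACCACCCA, either strand), the Indian hedgehog effector site held by 0.225% of start sites, were in none of the 4 windows. An E-box (CAGCTG), held by 13% of start sites, lay 34 to 39 bases before the Pthlh start. GENCODE begins Pthlh farther upstream, at 147264183, and the bases printed above lie 171 to 250 bases before the RefSeq start. This E-box and the GC boxes at 3 to 8, 21 to 26 and 40 to 45 bases thus lie inside the gene by GENCODE. They are not printed. The GC boxes 15 to 20 and 26 to 31 bases before the last Pth1r start are likewise outside the bases printed. A TATA box (the letters TATAAA, either strand), held by 12.4% of start sites, was in none of the 4 windows. Neither was an ETS site (CCGGAAG, either strand), held by 6.91%, nor a SMAD site (GTCTAGAC), held by 0.167%. No matches overlapped each other.

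Pthlh, the ligand, was low in every library and higher in all 4 libraries labelled Erbb3d/d. It had 23, 13, 29 and 28 reads with the label Erbb3f/f, which is 2.24, 1.36, 2.28 and 3.16 CPM. With the label Erbb3d/d it had 73, 51, 135 and 101 reads, or 7.17, 5.94, 10.6 and 8.85 CPM. The groups did not overlap: the lowest library labelled Erbb3d/d was 1.88 times the highest labelled Erbb3f/f. With counting error the only pair of libraries to meet across the labels was the closest one: the exact 95% Poisson interval of Erbb3d/d replicate 2 (4.42 to 7.81 CPM) met that of Erbb3f/f replicate 4 (2.10 to 4.57 CPM). These intervals cover counting error only.

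The mean Pthlh level was 2.26 ± 0.736 CPM (SD, n = 4) in the libraries labelled Erbb3f/f and 8.15 ± 2.04 CPM (SD, n = 4) in those labelled Erbb3d/d, a ratio of 3.61. The fitted log2 fold change, Erbb3d/d over Erbb3f/f, was 1.85 (SE 0.31). Of the 14598 genes tested, 99.8% had a lower log2 fold change and 15.1% a lower mean level, so the gene with this fold is a weakly expressed one. Groups lying wholly apart with Erbb3d/d higher were seen for 2.57% of genes tested, a share from which nothing is read for Pthlh, since it was picked on this contrast. Over 15 other settings and subsets of the libraries the log2 fold change of Pthlh ran from 1.69 to 2.05, and without Erbb3d/d replicate 2 it was 1.98 (SE 0.32).

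**Figure D1:**
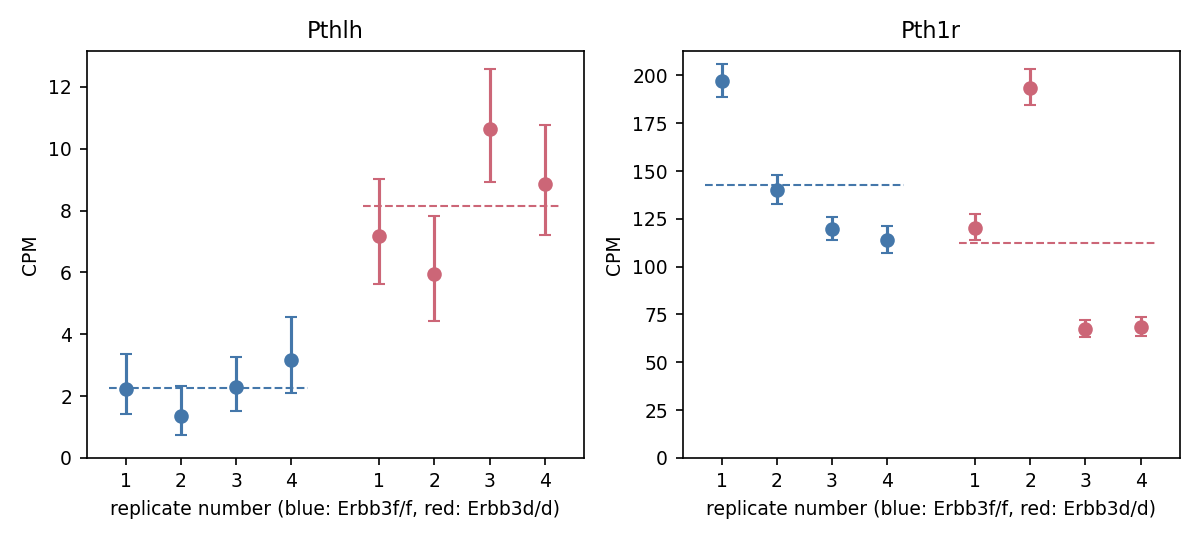
Normalised read counts (CPM, linear axis from 0) of Pthlh and Pth1r in each library by replicate number; bars are exact 95% Poisson intervals, which cover counting error only, and dashed lines are group means. All 4 Pthlh values labelled Erbb3d/d lie above the highest labelled Erbb3f/f, 3.16 CPM, while the Pth1r groups overlap.

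Pth1r, the receptor, was an abundant transcript with overlapping groups. Its level was 197, 140, 120 and 114 CPM with the label Erbb3f/f, from 2025, 1341, 1527 and 1009 reads. With the label Erbb3d/d it was 120, 194, 67.6 and 68.4 CPM, from 1227, 1662, 859 and 781 reads. Erbb3d/d replicates 3 and 4 were the lowest of the 8 libraries, replicate 1 lay within the Erbb3f/f range, and replicate 2 was near the top of it. The mean was 143 ± 37.9 CPM (SD, n = 4) in the libraries labelled Erbb3f/f and 113 ± 59.5 CPM (SD, n = 4) in those labelled Erbb3d/d.

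The fitted log2 fold change of Pth1r was -0.35 (SE 0.35), a difference of about its own error in this fit of genotype alone. With the replicate numbers as a block it was -0.45 (SE 0.22), though these numbers are not shown to pair the samples. Single libraries set the size of the fold change. It was -0.74 (SE 0.26) without Erbb3d/d replicate 2, and -0.14 without Erbb3f/f replicate 1, -0.16 without Erbb3d/d replicate 3 and -0.17 without Erbb3d/d replicate 4. The sign was negative in all 15 settings and subsets. Spread within a group was also wider among the libraries labelled Erbb3d/d, with a coefficient of variation of 52.8% against 26.5%.

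**Figure D2:**
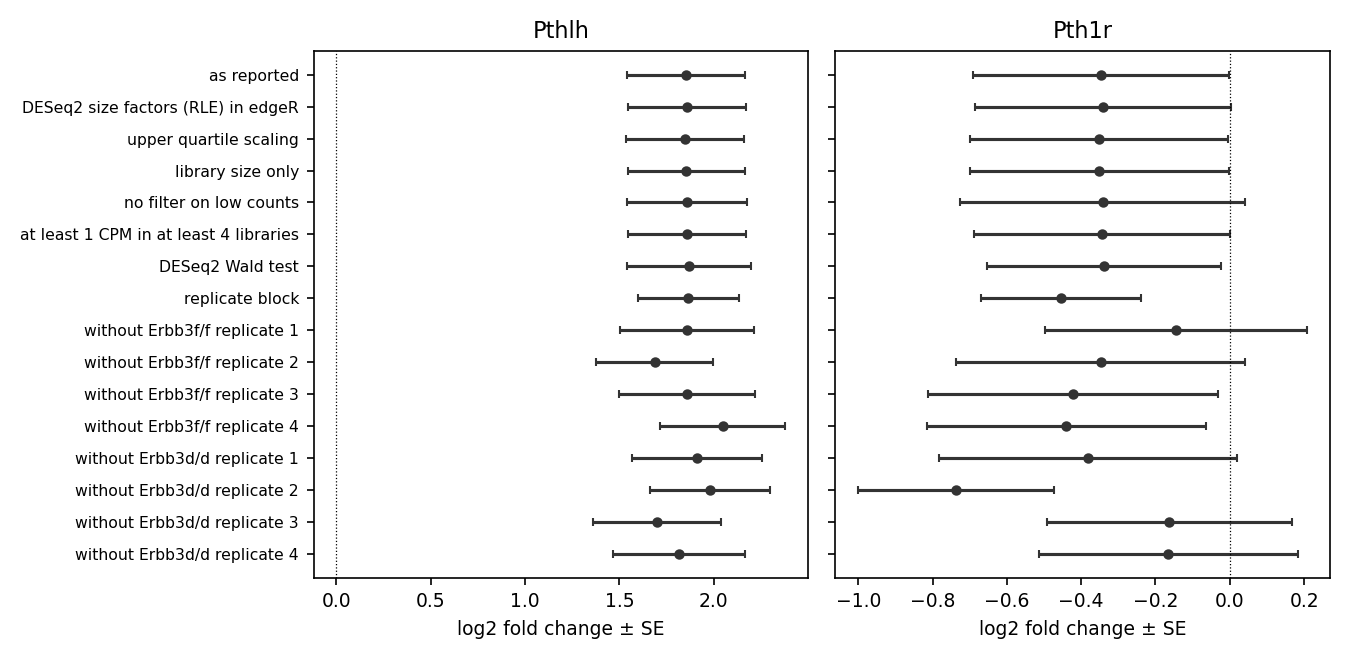
Log2 fold change of Pthlh and Pth1r (Erbb3d/d over Erbb3f/f, points) with its SE (bars) as reported and under each other setting or with 1 library left out; the dotted line is 0. Pthlh stays between 1.69 and 2.05, and Pth1r moves between -0.74 and -0.14 depending on which library is left out.

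One annotated gene shares exonic bases with Pth1r and none does with Pthlh. Myl3, a myosin light chain gene on the plus strand, covers 95 bp of merged exon 5 of Pth1r (3.25% of its exonic length, chromosome 9 from 110741939 to 110742033). The libraries carry no strand, so reads there cannot be told apart. Myl3 itself had 0 to 6 reads per library, against 781 or more for Pth1r.

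Per length, the receptor stood above the ligand in every library. Dividing CPM by kilobases of exon gave Pthlh 1.40 ± 0.455 and Pth1r 48.8 ± 13.0 CPM per kb (SD, n = 4) in the libraries labelled Erbb3f/f. In those labelled Erbb3d/d the levels were 5.03 ± 1.26 for Pthlh and 38.5 ± 20.3 CPM per kb for Pth1r (SD, n = 4). Receptor over ligand was 48.7, 57.1, 29.1 and 19.9 with the label Erbb3f/f and 9.30, 18.0, 3.52 and 4.28 with the label Erbb3d/d. The ratio did not overlap between the groups, by a small margin between Erbb3f/f replicate 4 and Erbb3d/d replicate 2, and its lowest values were in the 2 libraries where Pthlh was highest and Pth1r lowest.

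Other ligands of the family were not detected. Pth, which encodes parathyroid hormone, and Pth2, which encodes the ligand of the second receptor, had 0 reads in all 8 libraries, which allows a level of up to 0.0356 CPM over the libraries together (3 counts, counting error only). Pth2r, that second receptor, had 13 reads in all, in 5 libraries, with at most 5 in a library. Pthlh was thus the family ligand with reads here, and Pth1r the receptor with most of them.

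Receptor activity-modifying proteins are single-pass partners of class B receptors. RAMP2 is known to bind PTH1R, RAMP1 makes the receptor for calcitonin gene-related peptide with the calcitonin receptor-like receptor, and RAMP2 and RAMP3 make receptors for adrenomedullin with it. Ramp1 was 62.3, 40.4, 53.0 and 39.6 CPM with the label Erbb3f/f and 36.4, 24.0, 17.5 and 20.5 CPM with the label Erbb3d/d, so that all 4 libraries labelled Erbb3d/d lay below the others. Among genes tested, 2.48% showed this separation with Erbb3d/d lower. The log2 fold change of Ramp1 was -0.99 (SE 0.24), which did not pass the threshold of 0.05 by the edgeR quasi-likelihood test (Benjamini-Hochberg adjusted p = 0.237). DESeq2 put it at an adjusted p of 0.00932, and over all 15 settings and subsets the adjusted p ran from 0.00932 to 0.633.

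Ramp2 overlapped between the groups, at 86.3 ± 10.5 and 97.2 ± 6.96 CPM (SD, n = 4), a log2 fold change of 0.17 (SE 0.11, edgeR adjusted p = 0.547). Ramp3 was 160, 126, 228 and 338 CPM with the label Erbb3f/f and 354, 296, 535 and 223 CPM with the label Erbb3d/d. Its groups overlapped, with a log2 fold change of 0.72 (SE 0.34, edgeR adjusted p = 0.463). Per kilobase, Ramp3 was the highest of these transcripts and Pthlh the lowest in both groups. Means per kb ran in the order Ramp3, Pth1r, Ramp2, Ramp1 and Pthlh in each group, and neighbours in that order overlapped only with the label Erbb3d/d, for Pth1r and Ramp2 and for Ramp1 and Pthlh. The length used merges the exons of all annotated transcripts, 3022 bp for Ramp1, 3301 bp for Ramp2 and 1380 bp for Ramp3. Transcripts present here may be shorter, which would raise their level per kb. Means of CPM not divided by length ran in the same order in each group.

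**Figure D3:**
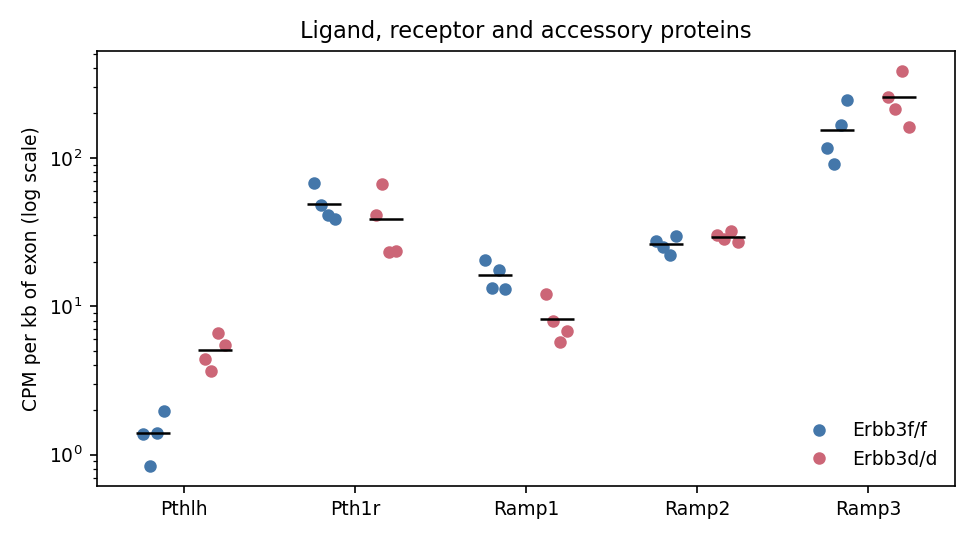
Level per kilobase of exon (CPM per kb, log axis) of Pthlh, Pth1r and the 3 receptor activity-modifying proteins; each point is a library and black lines are group means. Pthlh is lowest in both groups, with means of 1.40 and 5.03 CPM per kb, and the Ramp1 groups do not overlap.

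The other pathway genes were read through 8 lists of 172 distinct genes, of which 156 had enough reads. None passed an adjusted p of 0.05 by the edgeR quasi-likelihood fit of genotype alone to all 8 libraries, as for all genes tested, where the share called was 0%. At an unadjusted p under 0.05, 15 list genes were higher with the label Erbb3d/d and 15 lower, against 6.64% and 4.97% of all genes (11.6% in either direction). DESeq2 called 8 list genes, against 1.79% of all genes: Ramp1, Adcy2, Prkar2b, Rgs2, Msx2, Igf1, Pcsk6 and Pam. Without Erbb3d/d replicate 2, edgeR called 4 of them, Adcy2, Igf1, Pcsk6 and Pam, against 1.75% of all genes. With the replicate numbers as a block in the fit to all 8 libraries, edgeR called Rgs2 and Hhip, against 0.356% of all genes. The log2 fold change was above 0 for 88 of the 156, with a median of 0.02, and for 48% of all genes, with a median of -0.01.

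Downstream of the receptor, the G proteins and the core of the kinase were close in level. Gnas, the stimulatory G protein subunit, averaged 540 CPM in the libraries labelled Erbb3f/f and 551 CPM in those labelled Erbb3d/d. Gnaq, the subunit that activates phospholipase C, averaged 165 and 163 CPM, and Prkaca, a catalytic subunit of protein kinase A, 79.9 and 77.0 CPM. Of 51 genes tested in this list, 26 had a log2 fold change above 0, the median was 0.01, and 0 were called by edgeR, with 3 higher and 7 lower at an unadjusted p under 0.05. DESeq2 called 2 of them.

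Adcy2, an adenylyl cyclase, had the highest fold change of the list. It was 0.681, 1.36, 0.471 and 1.02 CPM with the label Erbb3f/f and 5.89, 1.17, 5.12 and 6.31 CPM with the label Erbb3d/d. Erbb3d/d replicate 2 lay within the Erbb3f/f range and the other three far above it. The log2 fold change was 2.41 (SE 0.55, edgeR adjusted p = 0.205), the adjusted p was 0.0143 without that library, and it ran from 0.00457 with DESeq2 to 0.547 over the settings and subsets. Adcy2 was a minor cyclase by reads, next to Adcy6 at 186 and 196 CPM and Adcy7 at 172 and 147 CPM in the 2 groups.

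Prkar2b, a regulatory subunit of protein kinase A, was 19.7, 22.3, 22.8 and 22.0 CPM with the label Erbb3f/f and 14.7, 15.4, 16.9 and 13.4 CPM with the label Erbb3d/d. Its groups did not overlap, a separation seen with Erbb3d/d lower for 2.48% of genes tested. The log2 fold change of Prkar2b was -0.52 (SE 0.13, edgeR adjusted p = 0.257, range 0.0363 to 0.648 over settings and subsets, the lowest with DESeq2). Pde4a, a phosphodiesterase that breaks down cyclic AMP, averaged 47.6 ± 9.71 and 32.0 ± 5.96 CPM (SD, n = 4; edgeR adjusted p = 0.296). Crem, a transcription factor of the cyclic AMP response, averaged 23.5 ± 2.90 and 30.6 ± 5.71 CPM (SD, n = 4; edgeR adjusted p = 0.395), and overlapped between the groups.

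Transcripts known to come up early after cyclic AMP or parathyroid hormone had a median log2 fold change of 0.42, with 15 of 18 above 0, and 0 were called by edgeR (2 higher and 1 lower at an unadjusted p under 0.05, and 1 called by DESeq2). Of the 3 genes below 0 the lowest was Rgs2, a regulator of G protein signalling that parathyroid hormone induces in bone cells. Rgs2 was 352, 235, 254 and 196 CPM with the label Erbb3f/f and 175, 136, 125 and 149 CPM with the label Erbb3d/d, without overlap (2.48% of genes tested lay apart with Erbb3d/d lower). Its log2 fold change was -0.83 (SE 0.17, edgeR adjusted p = 0.183, range 0.00274 to 0.526 over settings and subsets, the lowest with DESeq2). Sik1, a kinase induced by cyclic AMP that restrains its own pathway, averaged 93.2 ± 17.1 and 138 ± 46.3 CPM (SD, n = 4; edgeR adjusted p = 0.396). Per1, a clock gene that cyclic AMP induces, averaged 97.0 ± 14.7 and 90.9 ± 28.2 CPM (SD, n = 4; edgeR adjusted p = 0.884).

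Genes that answer the peptide in bone, cartilage or mammary mesenchyme went in different directions. Of 20 tested, 13 had a log2 fold change above 0, with a median of 0.21, and 0 were called by edgeR (4 higher and 1 lower at an unadjusted p under 0.05, and 2 called by DESeq2). Msx2, a homeobox factor that PTHrP induces in mammary mesenchyme, was 6.52, 14.9, 10.6 and 19.7 CPM with the label Erbb3f/f and 22.4, 25.4, 64.3 and 38.9 CPM with the label Erbb3d/d. As for Pthlh, the groups did not overlap and Erbb3d/d replicates 3 and 4 were the highest. Groups wholly apart with Erbb3d/d higher were seen for 2.57% of genes tested. Erbb3d/d replicates 3 and 4 also had the highest sums of epithelial markers, 2403 and 2460 CPM. The part of epithelial content in the Msx2 values was not tested. The log2 fold change of Msx2 was 1.56 (SE 0.41, edgeR adjusted p = 0.279, range 0.00592 to 0.648 over settings and subsets, the lowest with DESeq2).

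Sox9, the cartilage factor, averaged 8.97 ± 3.59 and 18.2 ± 5.62 CPM (SD, n = 4; edgeR adjusted p = 0.319), again without overlap (2.57% of genes tested lay apart with Erbb3d/d higher). Its highest values, 17.8 and 26.2 CPM, were likewise in Erbb3d/d replicates 3 and 4, and the part of epithelial content was not tested. Lef1, a WNT effector known from the mammary mesenchyme, averaged 114 ± 20.9 and 63.6 ± 37.8 CPM (SD, n = 4; edgeR adjusted p = 0.432), with overlap. Igf1, a growth factor, had a log2 fold change of -1.07 (SE 0.24, edgeR adjusted p = 0.216, range 0.00193 to 0.409 over settings and subsets), and its groups did not overlap (2.48% of genes tested lay apart with Erbb3d/d lower). Sost, Mmp13, Bglap and Dkk1, known bone and cartilage targets, had too few reads to be tested.

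Among the genes upstream of Pthlh, the Indian hedgehog list had a median log2 fold change of -0.26, and 11 of 14 genes tested were below 0. Indian hedgehog itself (Ihh) averaged 85.5 and 63.1 CPM in the 2 groups, with a log2 fold change of -0.44 (SE 0.49). Gli2, a transcription factor of the pathway, was 126, 133, 125 and 135 CPM with the label Erbb3f/f and 109, 120, 99.9 and 87.5 CPM with the label Erbb3d/d, without overlap (log2 fold change -0.32, SE 0.10, edgeR adjusted p = 0.311). Groups wholly apart with Erbb3d/d lower were seen for 2.48% of genes tested. Hhip, a secreted inhibitor and target of hedgehog, averaged 17.3 ± 11.9 and 3.78 ± 4.82 CPM (SD, n = 4; edgeR adjusted p = 0.389), with overlap. Its log2 fold change of -2.25 (SE 0.88) went from -1.76 without Erbb3f/f replicate 2 to -3.61 without Erbb3d/d replicate 2. The adjusted p ran from 0.0456 to 0.742 over settings and subsets, the lowest in the edgeR fit with the replicate block, the one setting in which it passed. In the edgeR fit of genotype alone to all 8 libraries, and with DESeq2, no gene of this list was called, with 1 higher and 3 lower at an unadjusted p under 0.05.

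**Figure D4:**
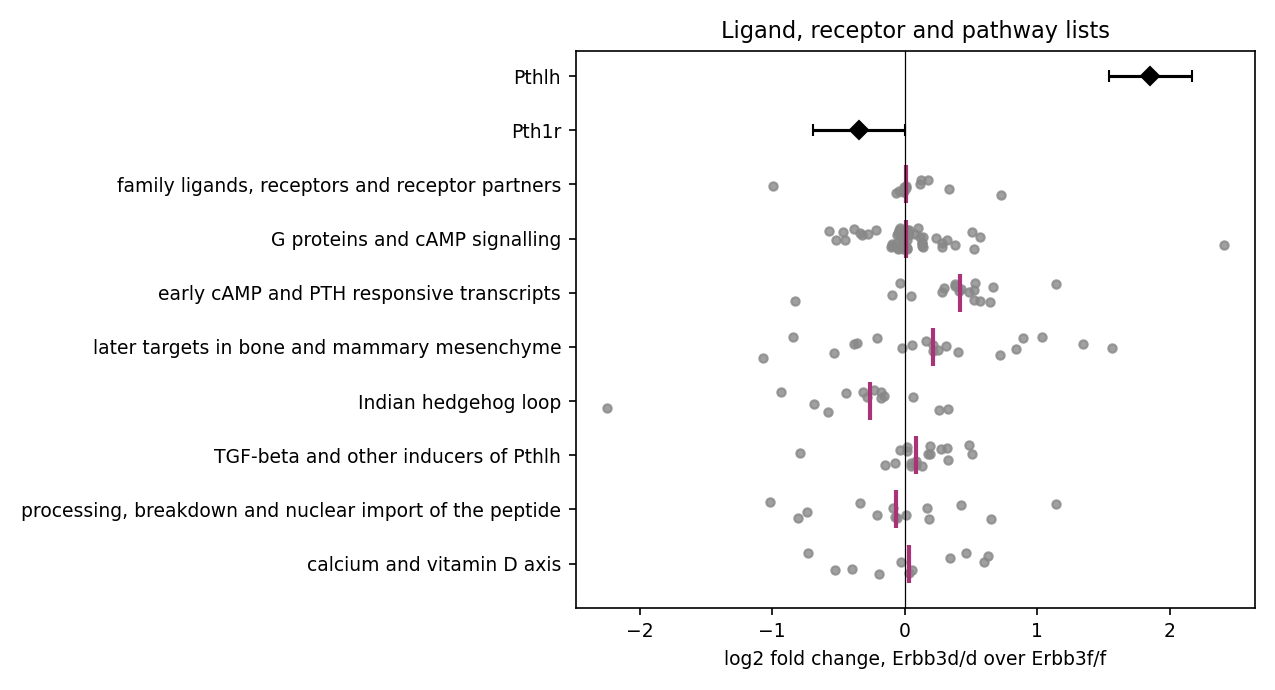
Log2 fold change (Erbb3d/d over Erbb3f/f) of Pthlh and Pth1r (diamonds, with SE) and of each tested gene of 8 pathway lists (grey points, jittered vertically), with list medians as coloured bars. Medians run from -0.26 for the Indian hedgehog loop to 0.42 for early cyclic AMP responsive transcripts, and no list gene passed an adjusted p of 0.05 in this edgeR fit of genotype alone to all 8 libraries, while DESeq2 called 8 and the edgeR fit with the replicate block 2.

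TGF-beta genes and other factors known to act on Pthlh transcription had a median log2 fold change of 0.09, with 15 of 19 above 0 and 0 called by edgeR or DESeq2 (2 higher and 0 lower at an unadjusted p under 0.05). Wwtr1, which encodes the Hippo effector TAZ, was 158, 165, 163 and 164 CPM with the label Erbb3f/f and 196, 184, 186 and 217 CPM with the label Erbb3d/d. The groups lay apart by a small margin, as for 2.57% of genes tested with Erbb3d/d higher. The log2 fold change of Wwtr1 was 0.27 (SE 0.08, edgeR adjusted p = 0.294). Ets2, an ETS factor, averaged 175 ± 16.5 and 218 ± 34.3 CPM (SD, n = 4; edgeR adjusted p = 0.356).

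PTHrP is cut from a longer precursor by proprotein convertases. Furin, a convertase, averaged 155 CPM with the label Erbb3f/f and 155 CPM with the label Erbb3d/d (log2 fold change 0.006, SE 0.10). Pcsk7, a further convertase, averaged 33.8 and 37.9 CPM (log2 fold change 0.16, SE 0.12). Pcsk6, a convertase, was 9.54, 14.5, 12.6 and 10.3 CPM with the label Erbb3f/f and 24.6, 13.4, 28.4 and 36.7 CPM with the label Erbb3d/d. Erbb3d/d replicate 2 was within the Erbb3f/f range and the other three above it. The log2 fold change was 1.14 (SE 0.28, edgeR adjusted p = 0.237, 0.0143 without that library, range 0.0102 to 0.595 over settings and subsets). Pam, which amidates peptide hormones at their carboxyl end, averaged 83.3 ± 10.2 and 131 ± 32.5 CPM (SD, n = 4; edgeR adjusted p = 0.257, range 0.0288 to 0.648 over settings and subsets).

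Pcsk5, another convertase, was 174, 139, 206 and 118 CPM with the label Erbb3f/f and 94.6, 138, 43.8 and 40.5 CPM with the label Erbb3d/d, the latter with the lowest values in the same 2 libraries as Pth1r (edgeR adjusted p = 0.377). Over the 14 processing genes tested, 6 had a log2 fold change above 0 and the median was -0.07; edgeR called 0, with 2 higher and 2 lower at an unadjusted p under 0.05, and DESeq2 called 2. In the calcium and vitamin D list, 6 of 11 genes tested were above 0 with a median of 0.03, and neither tool called any (3 higher and 0 lower at an unadjusted p under 0.05). Slc8a1, a sodium-calcium exchanger, averaged 169 ± 14.7 and 214 ± 33.3 CPM (SD, n = 4; edgeR adjusted p = 0.337), and Stc2, a stanniocalcin, 9.86 ± 1.18 and 15.2 ± 4.71 CPM (SD, n = 4; edgeR adjusted p = 0.356).

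Markers of other cells also differed in summed level between the libraries. In such bulk samples, fewer cells of a type and less RNA per cell cannot be told apart. The 15 epithelial markers summed to 983 to 1600 CPM in the libraries labelled Erbb3f/f and 1506 to 2460 CPM in those labelled Erbb3d/d, with 13 of 15 higher in the latter. The 12 smooth muscle markers summed to 1883 to 3104 CPM and 2991 to 6264 CPM, with 11 of 12 higher. Over all genes tested 48% had a log2 fold change above 0. At an unadjusted p under 0.05 by edgeR 11 epithelial and 11 smooth muscle markers were higher and 0 lower, against 6.64% and 4.97% of all genes. None passed an adjusted p of 0.05 in that fit. DESeq2 called Epcam, Krt19, Cldn4, Cldn7, Cnn1 and Mylk, against 1.79% of all genes. Without Erbb3d/d replicate 2 edgeR called Mylk. None of these markers was at 0 in all libraries. Pthlh is known from epithelium, smooth muscle and mesothelium as well as stroma.

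Marker sums and Pthlh levels of single libraries stood as follows. Erbb3f/f replicate 4 and Erbb3d/d replicates 1 and 2 had epithelial sums of 1600, 1506 and 1579 CPM, and Pthlh at 3.16, 7.17 and 5.94 CPM. Erbb3f/f replicates 1 and 2 and Erbb3d/d replicate 3 had smooth muscle sums of 3088, 3104 and 2991 CPM, and Pthlh at 2.24, 1.36 and 10.6 CPM. The highest epithelial sums, 2403 and 2460 CPM, were in Erbb3d/d replicates 3 and 4, which also had the most Pthlh. The 7 mesothelial markers tested summed highest in Erbb3f/f replicate 3 and Erbb3d/d replicate 3, at 279 and 244 CPM, where Pthlh was 2.28 and 10.6 CPM. The part of epithelial, smooth muscle or mesothelial content in the Pthlh values was not tested.

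Split 2 against 2 within each group, Pth1r went with markers of pericytes, the contractile cells along small vessels, and with endothelial markers. These are 2 of 8 marker lists, and such a split of 4 libraries is a coarse match. The pericyte sum was 301, 363, 134 and 144 CPM with the label Erbb3f/f and 293, 298, 170 and 189 CPM with the label Erbb3d/d. The sum of 10 endothelial markers was 453, 492, 280 and 241 CPM with the label Erbb3f/f and 344, 523, 247 and 289 CPM with the label Erbb3d/d. For both cell types, the 2 libraries of each group with more of the markers were also the 2 with more Pth1r. The finer order did not always match. Erbb3f/f replicate 2 had the highest pericyte sum, 363 CPM, and Pth1r at 140 CPM, below replicate 1 at 197 CPM. With the label Erbb3d/d the order held, though pericyte sums of 293 and 298 CPM went with Pth1r at 120 and 194 CPM. Between the groups both sums overlapped, and the match with pericyte sums did not hold across the groups. Pericyte sums were higher in Erbb3d/d replicates 3 and 4 (170 and 189 CPM) than in Erbb3f/f replicates 3 and 4 (134 and 144 CPM). Pth1r was lower there, at 67.6 and 68.4 CPM against 120 and 114 CPM. Under the label Erbb3d/d 4 of 8 tested pericyte markers were higher, with a median log2 fold change of -0.01, and 9 of 10 endothelial markers, with a median of 0.12. The part of pericyte or endothelial content in the Pth1r values was not tested.

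**Figure D5:**
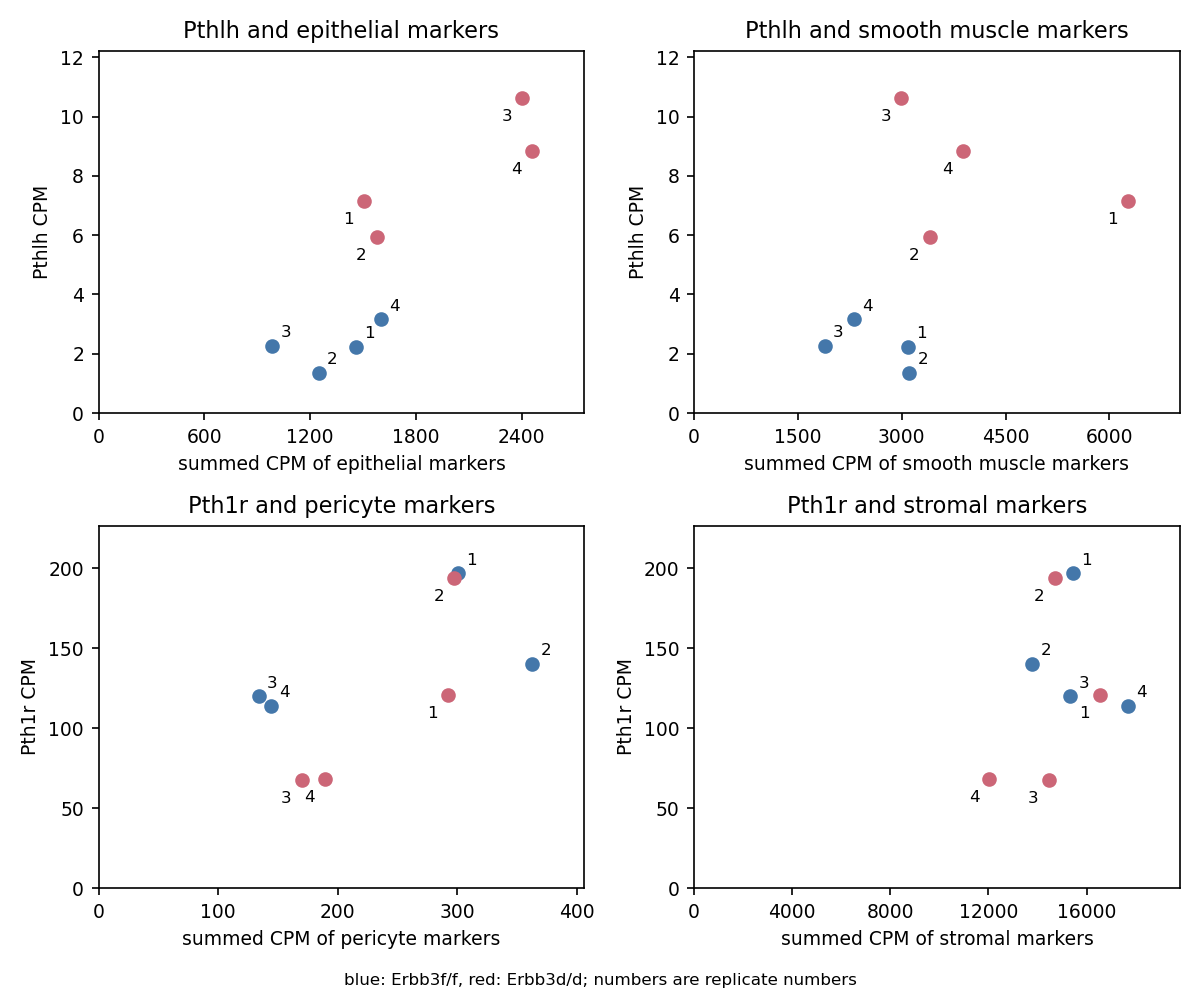
Pthlh against the summed CPM of epithelial and of smooth muscle markers, and Pth1r against that of pericyte and of stromal markers (all axes CPM, from 0); each point is a library, numbered by replicate. The 2 libraries with the most Pthlh have the highest epithelial sums, 2403 and 2460 CPM. The highest Pth1r values fall at pericyte sums of 298 and 301 CPM, while the highest pericyte sum, 363 CPM, has Pth1r at 140 CPM.

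The genes whose pattern over the 8 libraries was most like Pthlh were found by Pearson correlation of log2 CPM, among 14517 other genes with a mean of at least 1 CPM. They were Cadps (r = 0.975), a factor for release of dense-core vesicles, Cox17 (0.973), a copper chaperone of the respiratory chain, 9930013L23Rik (0.970), Aldh1a3 (0.966), which makes retinoic acid, and Tec (0.963), a tyrosine kinase. Aldh1a3 averaged 11.1 ± 10.6 and 87.0 ± 58.7 CPM (SD, n = 4), and 9930013L23Rik 3.49 ± 1.36 and 12.6 ± 2.75 CPM (SD, n = 4). Likeness here includes the difference between the labels, and 86 genes had r of at least 0.9.

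For Pth1r the closest were Cpne5 (r = 0.980), a copine, Meg3 (0.979) and Rian (0.966), long noncoding RNAs of the same imprinted region, Slc13a5 (0.967), a citrate transporter, and Pitrm1 (0.966), a mitochondrial peptidase. Meg3 averaged 94.2 ± 24.1 and 69.7 ± 32.9 CPM and Rian 63.1 ± 18.2 and 41.1 ± 20.1 CPM (SD, n = 4). For Pth1r, 138 genes had r of at least 0.9. All these values share the same 8 libraries and their depth, and are descriptions.

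No tested neighbour of the members passed the threshold in the edgeR fit of genotype alone to all 8 libraries. The share called there was 0% of all genes, so nothing is read from this for the neighbours. Around Pthlh, Mrps35 and Ccdc91, the nearest tested genes on either side, had log2 fold changes of -0.07 (SE 0.23, edgeR adjusted p = 0.923) and -0.19 (SE 0.13, edgeR adjusted p = 0.580). They lie 178110 and 211645 bp away. Ccdc12, 10479 bp from Pth1r, had a log2 fold change of -0.04 (SE 0.15, edgeR adjusted p = 0.943). Farther on the same side, Nbeal2 had -0.23 (SE 0.15, edgeR adjusted p = 0.562) and Nradd -0.53 (SE 0.23, edgeR adjusted p = 0.418). The nearest genes on the other side, Prss42, Prss44 and Prss43, had too few reads to be tested.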

How the data were processed

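The authors deposited raw counts of reads per gene symbol, 1 table per library, with no normalization. Per the submitters' processing notes, HISAT2, SAMtools, HTSeq and StringTie were used with mm10 and GRCm38; versions, annotation and counting options are not given in the sources used here. Libraries were non-directional, per the labels' protocols. The 5 lines that name no gene were left out of library sizes. Reads counted to a gene were 27.0% to 29.1% of all entries, and reads that the counting assigned to no gene 48.3% to 50.8%. The latter need not lie outside genes, since the counting options are not given.

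The counts were fitted with edgeR 4.0.16 in R 4.3.3 (filterByExpr, TMM scaling, robust quasi-likelihood test of genotype, Benjamini-Hochberg adjustment over 14598 genes, threshold 0.05). The fit was checked on simulated data in which every gene had the same dispersion and no library deviated from its group. That check cannot show how the test fares with the spread and the deviating library seen here. CPM uses the TMM-scaled library size, and log2 CPM a prior count of 2. DESeq2 1.42.0, other scalings and filters, a replicate block and leaving out each library were alternatives. No 2 libraries agreed within sampling noise (chi-square per gene 10.8 or more, the lowest for Erbb3d/d replicate 2 against Erbb3f/f replicate 4). Exon lengths came from GENCODE vM21, where 21737 of 23420 symbols matched 1 gene, and promoter sequences from RefSeq, which held both members. The members got no test.

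The members and lists were chosen with earlier results of these data known; the lists come from general knowledge. Named are the members, Erbb3, the family genes, for each list the genes called or, with none, the 2 with the smallest p in each direction (some with their values not repeated), and the 5 genes most like each member. Genes outside that rule (Gnas, Gnaq, Prkaca, Adcy6, Adcy7, Ihh, Furin, Pcsk7, Myl3, neighbours) were named after their values were seen.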

Additional observations from a re-analysis of the deposited data

Results flagged for a closer look

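Of 88 groups of 4 libraries examined for 1 value far from the rest, 2 held one, where 4.4 would come up by chance at 1 in 20. Sox9 was 3.61 CPM in Erbb3f/f replicate 3, with the next lowest library of its label at 10.4 CPM. Arrb1, which encodes a beta-arrestin that binds the active receptor, was 185 CPM in Erbb3f/f replicate 1, below the nearest other library of that label at 233 CPM. Neither Pthlh nor Pth1r held such a value in either group.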

How the results depend on the processing

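Pthlh kept its direction in all 15 alternatives, with a log2 fold change of 1.85 to 1.87 under the 7 other settings and 1.69 to 2.05 when 1 library was left out. Pth1r stayed below 0, at -0.45 to -0.34 and -0.74 to -0.14. The count of genes called, 0 as reported, was 262 with DESeq2 (203 higher, 59 lower) and 52 with the replicate block (39 higher, 13 lower). Leaving out 1 library gave from 0 to 259 calls (0 to 143 higher, 0 to 116 lower), all of them without Erbb3d/d replicate 2. Pathway list genes called were 0 as reported, 8 with DESeq2, 2 with the replicate block (Rgs2 and Hhip), and 0 to 4 with 1 library left out. The cause was not tested.

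Replicate numbers are not shown to pair the samples: deviations from the group means correlated at 0.221, 0.159, 0.0959 and 0.145 between libraries of the same number, and 3 of 4 Erbb3f/f libraries correlated best with their own number. With the replicate block the log2 fold change of Pthlh was 1.87 (SE 0.27) and that of Pth1r -0.45 (SE 0.22). Of 480 fits of 32 other named genes, 464 kept direction and side of the threshold, 14 newly passed it, and Per1, at -0.10 as reported, changed sign without Erbb3f/f replicate 1 (0.011) or Erbb3d/d replicate 3 (0.012), within -0.33 to 0.012 when 1 library was left out. The low counts of Pthlh limit its precision in the libraries labelled Erbb3f/f.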
